A study of Mus musculus with 18 samples.

Results

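A set of 6 genes that handle extracellular ATP and adenosine was followed in mouse regulatory T (Treg) cells from 6 organs. They were chosen by name, as the ectonucleotidases Entpd1 and Nt5e, the adenosine receptors Adora2a and Adora2b, the adenosine-degrading enzyme Ada and the ATP receptor P2rx7, and all 6 were found among the 55487 genes of the deposited tables. The choice was made with earlier results of these data known. Treg cells are CD4-positive T cells that restrain other immune cells. They were freshly prepared from wild-type mice that had received no treatment. Peripheral blood, bone marrow, spleen, lymph node, liver and lung each gave 3 libraries, 18 in all, and the series asks how Treg cells of the blood differ from those of tissues. All groups share the genotype and the absence of treatment. Age, sex, strain, the sorting gates, the number of animals behind a library and whether replicates came from separate animals are not given in the sources used here. P-values below therefore measure only the spread between these samples, which may be technical.

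ATP released by stressed or activated cells acts as a danger signal on P2 receptors. At the cell surface CD39, the product of Entpd1, cuts ATP and ADP to AMP, and CD73, the product of Nt5e, cuts AMP to adenosine, which acts on the receptors encoded by Adora2a and Adora2b that raise cyclic AMP (cAMP). Treg cells are known for carrying both enzymes, for responding to adenosine through the Adora2a receptor, and for being sensitive to death through P2X7, the receptor encoded by P2rx7.

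Values are TPM, the share of a library's transcripts that a gene's transcripts make up, which is scaled for transcript length, so levels of different genes can be set side by side. In such bulk samples fewer cells of a type and less RNA per cell cannot be told apart. By the smallest steps between low values, 1 read of a 1 kb transcript was worth 0.0827 TPM on average in blood and 0.3782 TPM in liver, the deepest and the shallowest group. The 6 Treg markers (Foxp3, Il2ra, Ctla4, Ikzf2, Ikzf4 and Tnfrsf18) averaged at least 1 TPM in every organ. Their sum was lowest in blood, at 497 to 508 TPM, and highest in lung, at 2472 to 2575 TPM, with means of 935 in bone marrow, 945 in spleen, 1330 in lymph node and 1798 TPM in liver. Markers of other cells differed between the groups as well. The summed level of 16 myeloid genes, of neutrophils, monocytes and macrophages pooled, was 27551 to 28536 TPM in blood. It was 41542 to 41770 TPM in bone marrow and at most 1693 TPM in the libraries of the other organs. The sum of 8 platelet genes was 2265 to 2310 TPM in blood, 72.2 to 83.4 TPM in bone marrow and at most 19.5 TPM elsewhere. Defining platelet markers were at 0 in all libraries of some organs, with Tubb1 at 0 in spleen, Gp1bb in liver and lung, and Gp1bb and Treml1 in lymph node. None of the myeloid genes was at 0 throughout an organ. Cytotoxic (CD8 T and natural killer) genes summed to 636 to 690 TPM in blood and at most 133 TPM in a library elsewhere, with Klrd1 at 0 in liver. Dendritic cell genes summed to 2413 TPM on average in blood, 1625 in spleen, 999 in bone marrow, 791 in lung, 481 in lymph node and 361 in liver, where Siglech was at 0. This list includes H2-Ab1 and Cd74, which B cells also carry, so its sum does not measure dendritic cells alone. In lymph node, 2 of its 7 genes averaged at least 1 TPM. B cell genes averaged 514 to 626 TPM in blood, bone marrow and spleen and 89.9 to 159 TPM elsewhere.

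Of the 6 genes, 5 reached a mean of 1 TPM in all 6 organs. Adora2b reached it in blood alone, so it entered the tests only through the group where it was high, and counts that include it are descriptions. Differences were tested with limma on log2(TPM + 1) over all 18 libraries, adjusted over the 16694 genes tested. Fold changes on that scale understate changes of genes with low TPM. Each of the 6 genes has 15 pairwise differences, and across the genes 15 calls were lost and 18 were gained in at least 1 alternative analysis. Adjusted p under the alternatives is given beside those differences, with the lower or upper end of its range. An F test called all 6 genes as different among the organs, where 68% of all tested genes were called. The plot of each gene's level by library shows that the genes did not follow a common order of organs.

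**Figure D1:**
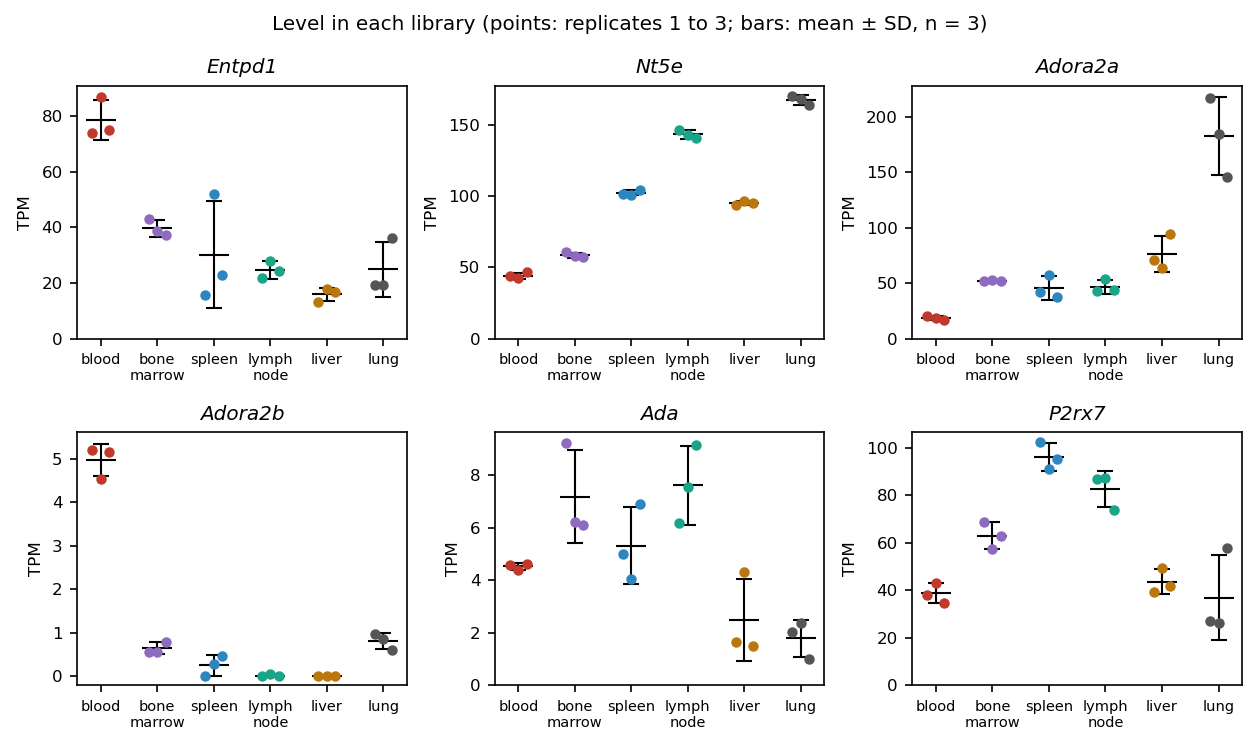
Level of the 6 genes in each of the 18 libraries, in TPM on linear axes that differ between panels; points are replicates 1 to 3 and bars the mean ± SD (n = 3 per organ). Entpd1 and Adora2b were highest in blood, Nt5e and Adora2a were lowest in blood and highest in lung, P2rx7 was highest in spleen, and Ada had its lowest mean in lung.

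Entpd1 (ENSMUSG00000048120) encodes CD39, the enzyme that starts the breakdown of ATP. It lies at chr19:40612366-40741602 on the plus strand in GENCODE M21 (build GRCm38, the same assembly as mm10), has 11 annotated transcripts and overlaps the intronic RNA gene AC166063.1 and the pseudogenes Gm16027 and Gm8783. Whether reads were counted by strand is not given in the sources used here, so reads shared with these neighbours cannot be separated. Its promoters are shown because Entpd1 and Adora2b were the members highest in blood, and because the deposited Entpd1 value sums over transcripts from both start sites of the RefSeq table, 47404 bases apart. Bases before each start that lie outside annotated exons are printed 5′ to 3′ on the plus strand, from RefSeq (GRCm38.p6), with motif matches on either strand in capitals. A CCAAT box was a match to the letters that name it, a GC box a match to GGGCGG, and a cAMP response element (CRE) half-site a match to TGACG. The motifs were chosen after the sequences had been seen. A GC box on the minus strand can share letters with a CCAAT box, and no matches overlapped here. The windows are chr19:40612234-40612365 for the upstream Entpd1 start, chr19:40659620-40659769 for the second start, and chr11:62248834-62248983 for Adora2b.
Entpd1 upstream start: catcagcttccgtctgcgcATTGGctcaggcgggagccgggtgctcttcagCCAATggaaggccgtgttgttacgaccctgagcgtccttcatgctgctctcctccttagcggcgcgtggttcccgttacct
Entpd1 second start: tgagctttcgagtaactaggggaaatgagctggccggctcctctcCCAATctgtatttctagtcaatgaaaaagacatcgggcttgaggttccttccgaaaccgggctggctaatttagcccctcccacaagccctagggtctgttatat
Adora2b: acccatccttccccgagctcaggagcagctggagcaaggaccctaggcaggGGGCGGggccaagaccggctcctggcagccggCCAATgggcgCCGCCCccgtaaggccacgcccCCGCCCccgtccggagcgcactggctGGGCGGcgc
The upstream Entpd1 window of 132 bases held 2 CCAAT boxes and the second window, of 150 bases, held 1. The Adora2b window of 150 bases held 1 CCAAT box and 4 GC boxes. Of 32851 RefSeq promoters, 22.6% held a CCAAT box and 27.4% a GC box in 132 bases before the start, and 24.5% and 28.6% did in 150 bases. The CRE half-site had 0 matches in these 3 windows, and 12.3% of promoters held it in 132 bases and 13.3% in 150 bases.

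Entpd1 was highest in blood, at 73.7, 86.9 and 75.0 TPM in the 3 libraries (mean 78.5 ± 7.29, SD). Bone marrow followed at 43.0, 38.6 and 37.0 TPM. Spleen was at 15.5, 51.9 and 22.7 TPM, with replicate 2 far above the other two. No library of another organ reached the lowest blood library. Lung was at 19.1, 19.2 and 36.3 TPM, lymph node at 21.7, 27.9 and 24.4 TPM, and liver at 13.2, 17.8 and 16.7 TPM. The ranges of spleen, lung and lymph node overlapped one another, and liver had the lowest mean (15.9 ± 2.41). From the highest to the lowest organ mean, the level changed 4.95-fold.

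Blood exceeded bone marrow in Entpd1 by 0.97 on the log2 scale (SE 0.32, limma adjusted p 0.0297) and liver by 2.24 (adjusted p 3.4e-05). The blood differences from spleen, lymph node and lung were 1.53, 1.64 and 1.68, with adjusted p of 0.00129, 0.000708 and 0.000461. All 5 comparisons share the 3 blood libraries. Among the other organs only bone marrow and liver were called apart, by 1.27 (adjusted p 0.00589), so 6 of 15 organ pairs were called. Below bone marrow, spleen, lung and lymph node overlapped with their neighbours in the order. Lymph node and liver did not overlap, but their difference of 0.61 was not called (adjusted p 0.171). The bone marrow call was lost when any 1 of the 6 libraries compared was left out (adjusted p up to 0.0921; over all alternatives, adjusted p began at 7.79e-05). Besides, 6 pairs that missed the threshold passed it in 1 or more alternatives. Without spleen replicate 2, 10 pairs were called, with bone marrow over spleen (0.00638), lymph node (0.039) and lung (0.0158) and lymph node over liver (0.0464) added. Spleen exceeded liver without spleen replicate 1 (0.0154), where bone marrow also exceeded lung (0.0452), as it did without lung replicate 3 (0.0229). Lung exceeded liver after scaling to T cell genes (0.0475). Over all alternatives the adjusted p of these 6 pairs reached 0.236 to 0.753 at the upper end.

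Entpd1 was set beside the marker sums of other cells, and the part of those cells in its level was not tested. Bone marrow, with the higher myeloid sum, had the lower Entpd1 level, 39.5 ± 3.13 TPM against 78.5 in blood. That sum pools neutrophil, monocyte and macrophage genes, so it stands for no single cell type. Platelet, cytotoxic, dendritic cell and B cell genes were at their highest in blood, as Entpd1 was, and the dendritic and B cell sums were lowest in liver, as Entpd1 was. The dendritic list holds H2-Ab1 and Cd74, which B cells also carry, so the dendritic and B cell sums are not separate parallels. Spleen replicate 2, the highest Entpd1 library outside blood, had the lowest myeloid sum of the 3 spleen libraries, 603 TPM against up to 756 TPM.

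**Figure D2:**
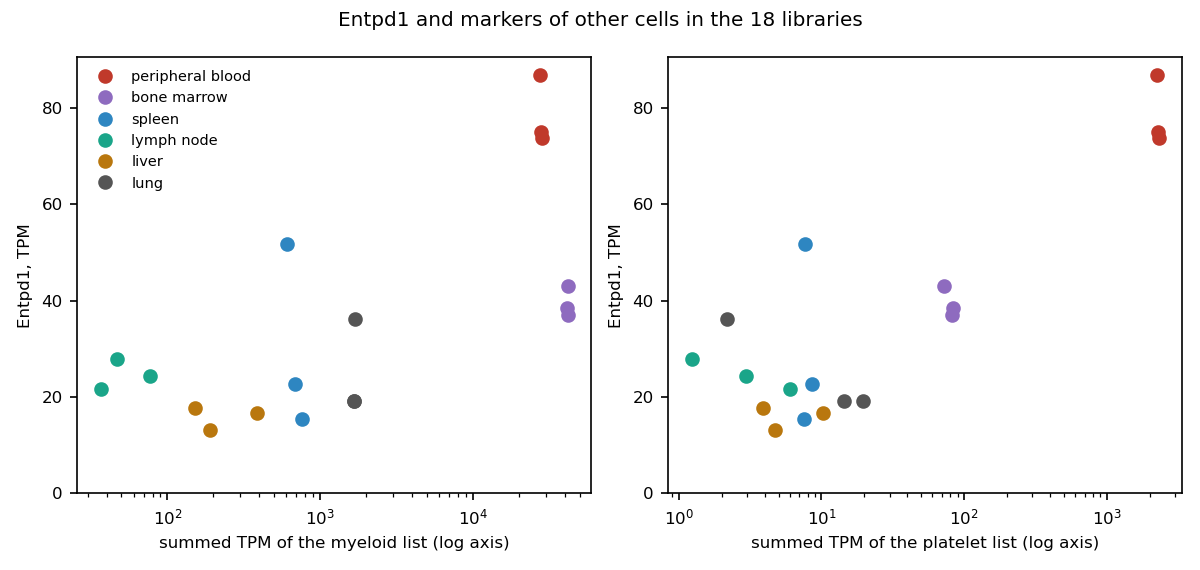
Entpd1 level (TPM, linear axis) against the summed TPM of the myeloid list (left, log axis) and of the platelet list (right, log axis) in the 18 libraries, coloured by organ. Blood stands apart at the upper right in both panels, while bone marrow has the highest myeloid sums with Entpd1 between 37.0 and 43.0 TPM.

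Nt5e (ENSMUSG00000032420, chr9:88327197-88372092, plus strand, 4 transcripts) encodes CD73, the enzyme that makes adenosine from AMP, and had its lowest level in blood. Blood was at 43.8, 42.4 and 46.5 TPM and bone marrow at 60.6, 58.2 and 57.2 TPM. Liver was at 94.0, 96.9 and 95.3 TPM, and spleen at 101.8, 101.2 and 104.4 TPM. Lymph node was at 146.7, 143.3 and 140.8 TPM and lung, the highest, at 170.8, 168.3 and 164.2 TPM. No 2 organs overlapped. The replicates were close, with coefficients of variation from 1.5% in liver to 4.7% in blood, and the highest organ mean was 3.79 times the lowest. The summed Treg markers were likewise lowest in blood and highest in lung. Liver had the next highest sum, as in Adora2a, but lay below spleen and lymph node in Nt5e. Foxp3 alone was at 88.6 TPM in blood, 140 to 149 TPM in spleen, bone marrow and liver, 230 TPM in lung and 239 TPM in lymph node. The part of the Treg markers in the Nt5e and Adora2a levels was not tested.

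With an SE of 0.05, blood was below lung in Nt5e by 1.90 on the log2 scale (limma adjusted p 3.19e-13), below lymph node by 1.68, below spleen by 1.19 and below liver by 1.09 (adjusted p at most 2.04e-10). Of 15 organ pairs 14 were called. Spleen and liver, neighbours in the order, were not (0.10, adjusted p 0.182), although every spleen library was above every liver library. This pair passed when ribosomal protein, mitochondrial and haemoglobin genes were left out of the total (0.17, adjusted p 0.0281, in a range up to 0.501), and all 15 pairs were then called. Lung exceeded lymph node by 0.22 (adjusted p 0.00378). Blood was below bone marrow by 0.40 (adjusted p 3.47e-05), but after scaling to 20 general T cell genes, described below, this value turned to 0.07 (adjusted p 0.37; over all alternatives it began at 3.13e-07).

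The 2 surface enzymes ran in opposite order between blood and the organs. The ratio of Nt5e to Entpd1 in TPM, which does not depend on the scaling of a library, was 0.594, 0.488 and 0.62 in the blood libraries. In bone marrow it was 1.408, 1.509 and 1.545. Its mean was 7.411 ± 2.498 in lung, 6.106 ± 0.911 in liver, 5.895 ± 0.821 in lymph node and 4.366 ± 2.31 in spleen (SD, n = 3). Entpd1 was the more abundant of the pair in the 3 blood libraries and Nt5e in the other 15. The lung and spleen ratios varied between replicates, as Entpd1 did. Lung replicate 3 was at 4.528 against 8.938 and 8.767. Spleen replicate 2 was at 1.951 against 6.553 and 4.595. Over the 18 libraries, which share organs, Entpd1 and Nt5e had a Pearson r of -0.70 on the log2 scale, given as a description.

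Adora2a (ENSMUSG00000020178, chr10:75316877-75334784, plus strand, 4 transcripts) encodes the main adenosine receptor of T cells, and was highest in lung. The lung libraries were at 216.4, 184.5 and 145.9 TPM and the liver libraries at 71.1, 63.6 and 94.1 TPM. Bone marrow was at 51.7, 52.8 and 52.0 TPM, lymph node at 42.4, 53.2 and 43.7 TPM and spleen at 41.8, 57.7 and 37.5 TPM. Blood was lowest, at 20.71, 18.86 and 16.99 TPM. Lung lay above and blood below every library of the other organs, while bone marrow, lymph node and spleen overlapped. The highest organ mean was 9.67 times the lowest, the widest range of the 5 genes that were above 0 in every library.

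Blood was below lung in Adora2a by 3.19 on the log2 scale (SE 0.18, limma adjusted p 5.58e-10), below liver by 1.94 (adjusted p 2.13e-07) and below bone marrow by 1.43 (adjusted p 1.16e-05). The differences from spleen and lymph node, -1.21 and -1.25 (adjusted p 4.4e-05 and 2.96e-05), shrank to -0.43 (adjusted p 0.0551) and -0.20 (adjusted p 0.377) after scaling to T cell genes, where adjusted p began at 5.07e-06 and 1.99e-08 over all alternatives. Lung exceeded liver by 1.25 (adjusted p 4.73e-05). In all, 12 of 15 pairs were called. Liver exceeded bone marrow by 0.52 (adjusted p 0.0319), and this call was lost in 8 alternatives, the removal of any bone marrow library or of liver replicate 3 among them (adjusted p up to 0.548, from 0.0102). The call of liver over spleen (0.73, adjusted p 0.00486) was lost under library weights (0.0617) and in a fit of these organs alone (0.0597), in a range from 0.00143. Bone marrow was above spleen (0.21) and lymph node (0.17) beyond the threshold only after scaling to T cell genes, of the alternatives run (adjusted p 0.0286 and 0.00275, in ranges up to 1 and 0.905).

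Adora2b (ENSMUSG00000018500, chr11:62248984-62266453, plus strand, 1 transcript) encodes a second receptor, which responds to higher adenosine concentrations and is known mainly from myeloid and other non-T cells. It was found at 5.2, 4.54 and 5.16 TPM in blood, worth about 106.7, 91.8 and 94.1 reads. Lung was at 0.98, 0.85 and 0.60 TPM, or 7, 6 and 4 reads, and bone marrow at 0.57, 0.56 and 0.80 TPM, or 8, 8 and 11 reads. No library outside blood came near the blood level. Spleen was at 0, 0.29 and 0.47 TPM, lymph node at 0, 0.05 and 0 TPM, which is a single read, and liver at 0 in all 3 libraries. Per unit of depth, blood had 7.77 times the bone marrow level (95% interval 5.23 to 12, counting error only), 6.10 times the lung level (3.75 to 10.62) and 19.17 times the spleen level (9.60 to 44.82).

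Against lymph node, with its 1 read, the ratio for Adora2b was 277.6 with an interval from 49.44 to 11001.61. Against liver the ratio was 21.4 when the 3 reads that a count of 0 allows over the 3 libraries were taken for liver. That value leaves out the counting error of the blood reads. The 95% interval from the counts themselves began at 17.3, which is the lower limit. The blood differences of Adora2b on the log2 scale, 1.86 (SE 0.19) from bone marrow and 1.72 from lung, are descriptions, since the gene passed the filter through blood alone. With no filter on level, limma gave adjusted p of 1.05e-06 and 1.15e-06. Of 15 pairs 10 were called with and without the filter, but those without blood rest on at most 27 reads an organ. The call of bone marrow over lymph node (0.69, adjusted p 0.0147) was lost without bone marrow replicate 3 or lymph node replicate 1 or 3 (adjusted p up to 0.0635, from 7.23e-05), and that of lung over spleen (0.54, adjusted p 0.0328) under library weights and without spleen replicate 1 or 2 or lung replicate 1 or 2 (up to 0.145, from 0.00399). Library weights took the calls of bone marrow and lung over liver (0.0635 and 0.0901, in ranges from 0.000719 and 0.000163). Bone marrow and spleen, not called apart (0.41, adjusted p 0.151), were called after scaling to T cell genes (0.0452) and with plain variance moderation (0.0356, in a range up to 0.449). The platelet, cytotoxic and dendritic cell lists and Adora2b were all highest in blood, and the part of other cells in the Adora2b level was not tested. Bone marrow, with the higher myeloid sum, held 0.643 ± 0.136 TPM. That sum pools several cell types and stands for none of them alone.

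Ada (ENSMUSG00000017697, chr2:163726584-163750239, minus strand, 2 transcripts) encodes adenosine deaminase, which turns adenosine to inosine, and was a low transcript in all organs. Lymph node was at 6.16, 7.54 and 9.16 TPM, bone marrow at 9.21, 6.23 and 6.10 TPM and spleen at 5, 4.03 and 6.91 TPM. Blood was at 4.57, 4.38 and 4.62 TPM. Liver was at 1.65, 4.30 and 1.5 TPM and lung at 2.02, 2.35 and 0.99 TPM. Neighbouring organs overlapped, except blood and liver, and lung had the lowest mean, 1.79 ± 0.709 TPM. The adjusted p of the F test was 0.000516, and 7 of 15 pairs were called, none of them neighbours and all with liver or lung. These organs were also the shallowest groups, where 1 read of a 1 kb transcript was worth 0.3782 and 0.2327 TPM on average. Reads were not derived for Ada, and the part of depth in its low values was not tested.

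Lymph node exceeded lung in Ada by 1.65 on the log2 scale (SE 0.30, limma adjusted p 0.000335) and liver by 1.38 (adjusted p 0.00234). Bone marrow exceeded lung by 1.57 (adjusted p 0.000503) and liver by 1.30 (adjusted p 0.00315). Blood exceeded lung by 1.02 (adjusted p 0.0112), a call lost without lung replicate 3 (0.80, adjusted p 0.0543, in a range from 0.000375). The difference of 0.75 between blood and liver missed the threshold (adjusted p 0.0573) and passed it in 5 alternatives, among them without liver replicate 2 (1.10, adjusted p 0.00439), without lung replicate 3 (0.0435) and after scaling to T cell genes (0.000485), in a range up to 0.183. Blood was below bone marrow by 0.55 (adjusted p 0.193) and below lymph node by 0.63 (0.117), which were called under library weights (0.0219 and 0.00466) and in fits of the organs compared (0.0259 and 0.00709), in ranges up to 0.767 and 0.401. Spleen exceeded lung by 1.19 (adjusted p 0.00466). Spleen exceeded liver by 0.92 (adjusted p 0.0282), with overlapping libraries, and this call was lost under library weights, in a fit of these organs alone and without replicate 1 or 3 of either organ (adjusted p up to 0.179, from 0.00244).

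P2rx7 (ENSMUSG00000029468, chr5:122643911-122691432, plus strand, 8 transcripts, host of the microRNA gene Mir8115) encodes the P2X7 channel, which opens at high ATP. Spleen was highest, at 102.4, 91.1 and 95.2 TPM, and lymph node was at 87.0, 87.5 and 73.8 TPM. Bone marrow was at 68.8, 57.3 and 62.8 TPM. These 3 lymphoid organs did not overlap one another, and each lay above every blood and liver library. Liver was at 39.2, 49.4 and 41.9 TPM and blood at 38.1, 43.1 and 34.7 TPM. Lung was at 27.2, 26.0 and 57.7 TPM. In lung, replicates 1 and 2 were the lowest of the 18 libraries, while replicate 3 was above every blood and liver library. The same library was the highest of the 3 lung libraries in Entpd1 and the lowest in Adora2a.

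P2rx7 was higher in spleen than in blood by 1.30 on the log2 scale (SE 0.22, limma adjusted p 0.000171), and in lymph node by 1.08 (adjusted p 0.000842). After scaling to T cell genes, neither passed: the blood differences became -0.50 (adjusted p 0.057) for spleen and -0.01 (adjusted p 0.998) for lymph node, in ranges from 2.57e-07 and 1.78e-07. Bone marrow exceeded blood by 0.69 (adjusted p 0.0224), which became 0.22 on that scale (blood minus bone marrow -0.22, adjusted p 0.464, in a range from 8.22e-05) and was also lost without blood replicate 1 or 3 or bone marrow replicate 1 or 3. Blood and liver differed by -0.17 (adjusted p 0.592), which turned to 0.68 after that scaling (adjusted p 0.0107, in a range up to 0.859). Spleen exceeded lung by 1.45 (adjusted p 5.52e-05) and liver by 1.13 (adjusted p 0.000884). Of 15 pairs 8 were called and no neighbours in the order, but 13 were called without lung replicate 3. Blood minus lung was 0.16 (adjusted p 0.605) and became 0.52 (adjusted p 0.00328, in a range up to 0.999) without that library. After scaling to T cell genes it was 0.72 (adjusted p 0.00883). Removing lung replicate 3 also added the calls of bone marrow below spleen (0.61, adjusted p 0.000752) and lymph node (0.39, 0.0173), bone marrow over liver (0.53, 0.00174) and liver over lung (0.68, 0.000617). The adjusted p of these 4 pairs with all libraries was 0.0535, 0.252, 0.0726 and 0.273, and over all alternatives it reached 0.329, 0.487, 0.191 and 0.958. Without lung replicate 1 or 2, bone marrow and spleen also passed (0.0429 and 0.0354). Bone marrow exceeded lung by 0.85 (adjusted p 0.00474), which was lost in a fit of these organs alone (adjusted p 0.0609, in a range from 1.98e-06).

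The receptor for ATP and the main receptor for adenosine were set against each other in the same libraries. The ratio of Adora2a to P2rx7 in TPM was 0.478 ± 0.134 in spleen and 0.49 ± 0.053 in blood, against 0.562 ± 0.065 in lymph node and 0.834 ± 0.086 in bone marrow (SD, n = 3). It was 1.782 ± 0.482 in liver and 5.864 ± 2.918 in lung. P2rx7 was the more abundant of the pair in all 12 libraries of blood, spleen, lymph node and bone marrow, and Adora2a in all 6 of liver and lung. Lung replicate 3, at 2.531, lay below the other lung libraries, at 7.958 and 7.103, and above the highest liver library, at 2.248.

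Blood against each organ is the comparison the series names. In blood against bone marrow, 2 of the 6 genes were higher (Entpd1 and Adora2b), where 13% of all tested genes were, and 3 were lower (Nt5e, Adora2a and P2rx7), where 18.8% were. The same genes and directions were called against spleen, where 20.1% of all genes were higher and 15.3% lower, and against lymph node, where 16.4% were higher and 21% lower. Against liver, Entpd1 and Adora2b were higher (23.3% of all genes) and Nt5e and Adora2a lower (16.1%). Against lung, Entpd1, Adora2b and Ada were higher (26.4%) and Nt5e and Adora2a lower (17.3%). These comparisons share the 3 blood libraries. Adora2b passed the filter through blood alone, so the counts and medians that include it are descriptions. Apart from it, Entpd1 was the only gene called higher in blood, with Ada added against lung. The median difference of the 6 genes was -0.47, -0.68, -0.85, 0.29 and 0.59 against bone marrow, spleen, lymph node, liver and lung, beside -0.11, 0.00, -0.15, 0.07 and 0.12 over all genes tested.

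**Figure D3:**
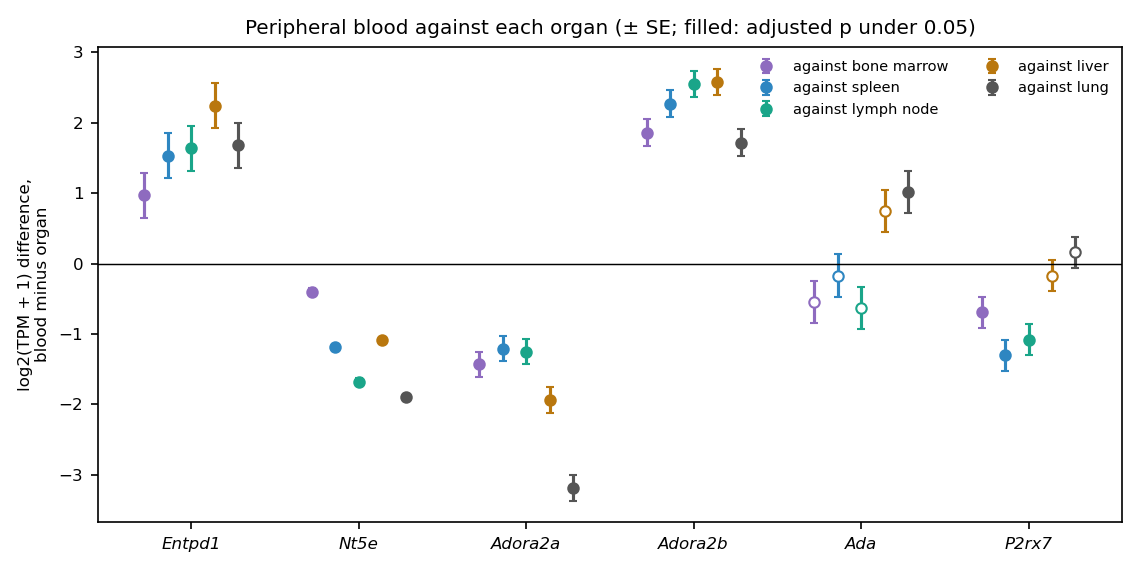
Difference between blood and each of the 5 organs on the log2(TPM + 1) scale (vertical axis, blood minus organ) for the 6 genes; points are limma estimates, bars ± SE, and filled points have an adjusted p under 0.05. Entpd1 and Adora2b lie above 0 and Nt5e and Adora2a below 0 against every organ on this scale, while Ada has values on both sides, and so has P2rx7; the Nt5e difference from bone marrow turns to 0.07 after scaling to T cell genes.

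Among the other organs, 1 of the 6 genes was called between bone marrow and spleen (Nt5e; 24.1% of all genes in either direction) and 2 between bone marrow and lymph node (Nt5e and Adora2b; 22.5%). Between spleen and lymph node only Nt5e was called, where 14.3% of all genes were. Liver differed from bone marrow in 5 of the genes (34.5%), from spleen in 3 (31.3%) and from lymph node in 4 (31.1%). Lung differed from bone marrow in 4 (43.5%), from spleen in 5 (40.8%), from lymph node in 5 (42.3%) and from liver in 3 (34.9%). Between lung and liver the genes were Nt5e, Adora2a and Adora2b, all higher in lung. Counts with Adora2b, which passed the filter through blood alone and had few reads in these organs, are descriptions here too.

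The levels were also computed after scaling each library to 20 general T cell genes, such as Cd3e, Lck and Thy1. The geometric mean of these genes was lowest for blood (143.2 TPM) and highest for lymph node (305.4 TPM), with bone marrow at 200, lung at 213.1, spleen at 251.1 and liver at 260.5 TPM. Over the genes tested on both scales, the scaling moved the median difference from -0.11 to 0.27 in blood minus bone marrow, from 0.00 to 0.65 against spleen, from -0.15 to 0.71 against lymph node, from 0.08 to 0.79 against liver and from 0.12 to 0.59 against lung, and the members moved with it. On this scale Entpd1 was at 122 ± 10.3 in blood and 13.6 to 44.0 in the organs, and 10 of its 15 pairs were called. Nt5e was at 68.8 ± 3.55 in blood and 65.3 ± 2.32 in bone marrow and highest in lung, at 175 ± 7.52. Adora2a kept its lowest mean in blood, 29.3 ± 3.00, and its highest in lung, 191 ± 41.3. P2rx7 was at 60.1 ± 6.14 in blood and 60.4 ± 5.88 in lymph node, and Ada at 7.04 ± 0.25 in blood and 8 ± 2.02 in bone marrow.

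**Figure D4:**
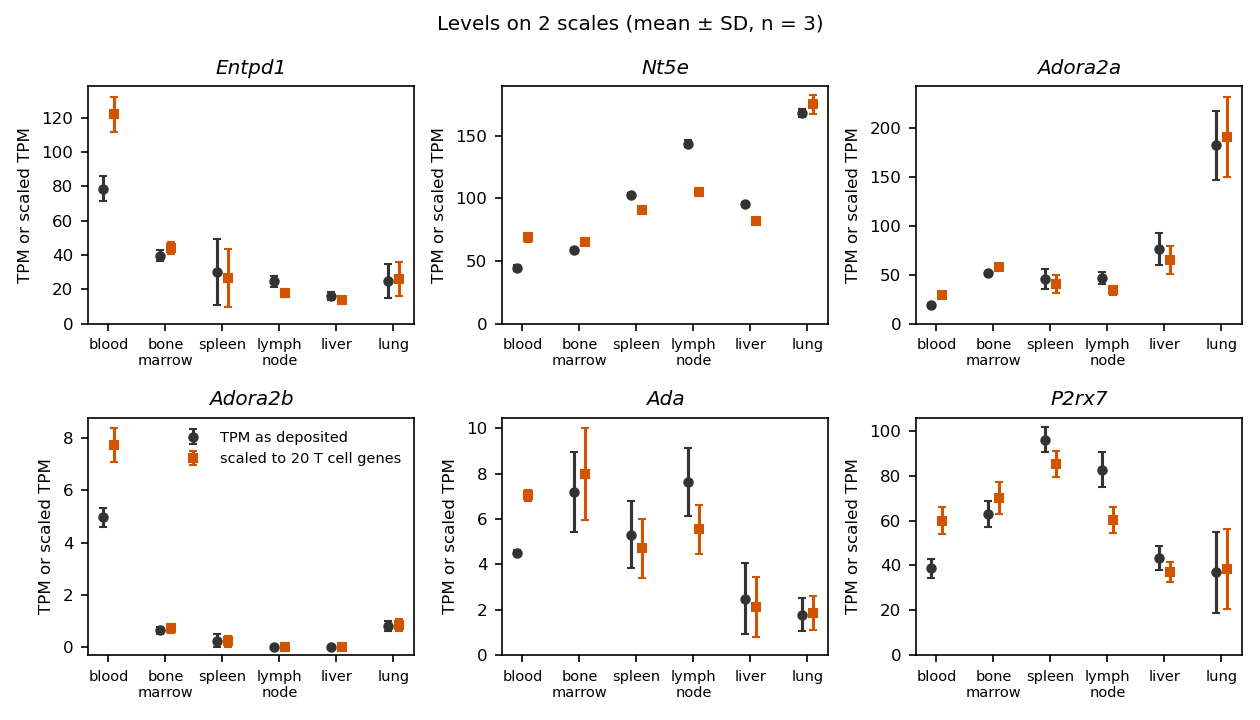
Organ means ± SD (n = 3) of the 6 genes as deposited (circles, TPM) and after scaling to 20 T cell genes (squares, scaled TPM), on linear axes. Entpd1 and Adora2b stay highest in blood and Nt5e and Adora2a highest in lung on both scales, while Nt5e in blood comes level with bone marrow and P2rx7 in blood level with lymph node after scaling.

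Other genes of the pathway were taken from a list of 48, of which 47 were matched, 35 were tested. Of those, 5 passed the filter through 1 organ only, 3 of them through blood, and are left out of the counts here. The F test called 24 of the other 30 (68% of all genes). The shares of all genes here include genes that passed the filter through 1 organ, so they were filtered less strictly than the 30. The list was chosen with earlier results of these data known. Against bone marrow 9 of the 30 were higher in blood and 6 lower, where 13% and 18.8% of all genes were. Against spleen the counts were 11 and 6 (20.1% and 15.3% of all genes), and against lymph node 10 and 6 (16.4% and 21%). Against liver 12 were higher and 4 lower (23.3% and 16.1%), and against lung 14 and 6 (26.4% and 17.3%). By group, the F test called 6 of 6 P2Y receptors, 2 of 2 other P2X receptors, 3 of 4 other ectonucleotidases, 1 of 2 ATP release channels, 3 of 5 nucleoside transporters, 6 of 8 intracellular enzymes and 3 of 3 NAD-consuming or ADP-ribosylating ectoenzymes. Of the other adenosine receptors, Adora3 was at 2.03 ± 0.644 TPM in blood and at most 0.39 TPM on average elsewhere, so it too was tested through blood alone, while Adora1 stayed below 1 TPM in all organs and was not tested.

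Among the P2Y receptors, P2ry10, a receptor of lysophospholipids in lymphocytes, was the most abundant, at 162 TPM in blood, 95.8 in lymph node, 430 in liver and 733 in lung (blood minus lung -2.17, SE 0.05, limma adjusted p 3.58e-14). It was listed with the P2Y receptors by its name, and the pathway counts include it. P2ry12, the ADP receptor of platelets, was at 60.7 ± 5.09 TPM in blood and at most 0.933 TPM on average elsewhere, and it is 1 of the 8 platelet markers. P2ry6 (16.1 TPM), P2ry13 (18.2 TPM) and P2rx1 (23.0 TPM) were likewise highest in blood, where the myeloid and platelet sums were high. They were at most 3.54 TPM on average elsewhere. The myeloid sum pools neutrophil, monocyte and macrophage genes and stands for no single cell type. In bone marrow, where this sum was higher than in blood, P2ry6, P2ry13 and P2rx1 were at 1.43, 3.54 and 3.02 TPM. The part of other cells in these levels was not tested. P2rx4, another ATP-gated channel, was at 17.8 to 35.4 TPM and not called between blood and lung (-0.19, adjusted p 0.52). P2ry14 was at 13.96 ± 8.88 TPM in lung and at most 3.46 TPM elsewhere.

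Enpp1, an ectoenzyme that releases AMP from ATP, was at 5.68 TPM in blood and 23.7 TPM in lung (-1.88, SE 0.17, limma adjusted p 1.36e-07). The ATP release channel Panx1 was at 35.6 and 95.5 TPM (-1.37, adjusted p 1.11e-05). Adenosine kinase (Adk), which removes adenosine inside the cell, was at 20.4 ± 1.29 TPM in blood and 60.1 ± 22.3 TPM in lung (-1.44, adjusted p 0.000154). Lung, the organ with the highest Nt5e and Adora2a, also had the highest mean of each of these 3 genes, and its lung epithelium markers summed to 224.9 to 297.2 TPM against at most 1.62 TPM elsewhere. The part of those cells in these levels was not tested. Of the nucleoside transporters, Slc29a1 was at 25.8 TPM in blood and 81.9 TPM in lymph node (-1.63, limma adjusted p 1.1e-05). Slc28a2 was at 86.3 and 131 TPM (-0.60, limma adjusted p 1.94e-05). Values of the listed pathway genes are given without scaling to T cell genes. That scaling moved blood minus lymph node by a median of 0.99 over all genes, more than the Slc28a2 difference.

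Inosine is broken down by Pnp, which was highest in bone marrow (98.3 TPM), with blood at 76.5 TPM and liver lowest at 33.0 TPM. The AMP deaminases Ampd2 and Ampd3 were at 24.1 and 43.4 TPM in blood and 8.26 and 4.55 TPM in lung (differences 1.47 and 3.02, limma adjusted p 1.87e-05 and 3.11e-07). Ada and these AMP deaminases were all lower in lung than in blood. Art2b, an enzyme known to open P2X7 on mouse T cells by ADP-ribosylation in the presence of NAD, was at 122 TPM in lymph node, 118 in spleen, 103 in blood, 84.1 in liver, 66.3 in bone marrow and 24.1 in lung. Blood exceeded lung by 2.06 (SE 0.10, adjusted p 1.33e-10). Art2b and P2rx7 both had their lowest means in lung and their higher means in spleen and lymph node, but blood, above bone marrow in mean Art2b, was below it in mean P2rx7, a difference that was not called after scaling to T cell genes (adjusted p 0.464). Cd38, which consumes NAD, was at 4.59 TPM in lung and 13.3 to 20 TPM elsewhere.

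**Figure D5:**
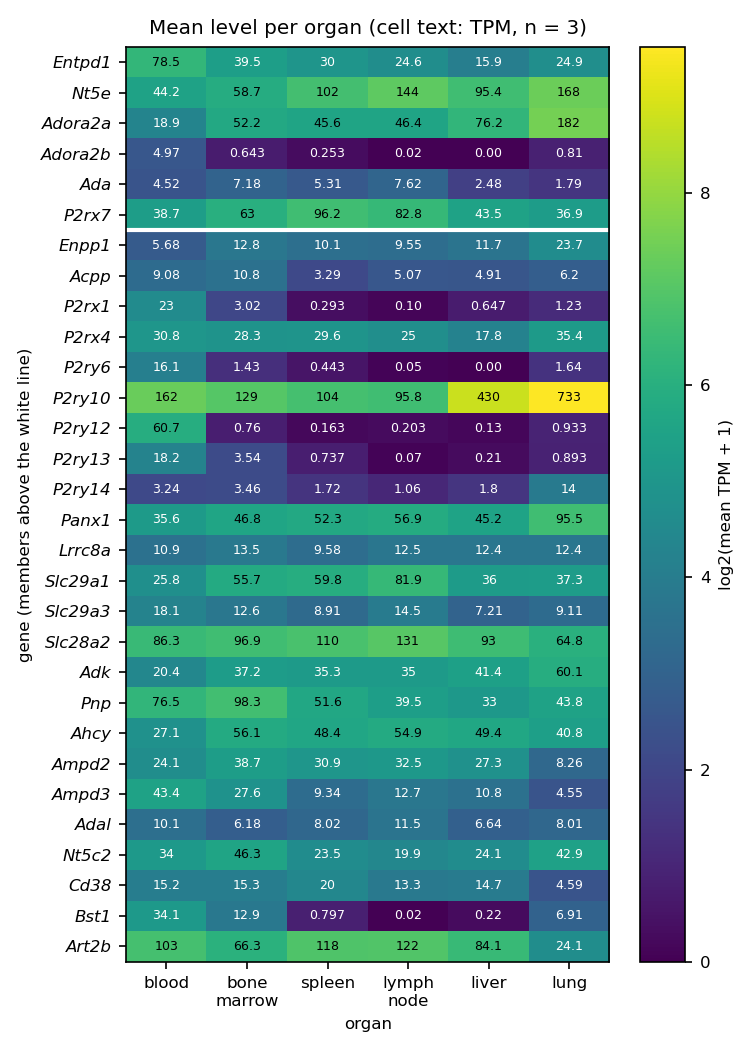
Mean TPM (n = 3, printed in each cell) of the 6 genes, above the white line, and of the 24 other pathway genes with at least 10 TPM in an organ; the colour gives log2(mean TPM + 1). P2ry10, a lysophospholipid receptor listed by its name, reaches 733 TPM in lung, P2ry12 is at 60.7 TPM in blood and below 1 TPM elsewhere, and Art2b is lowest in lung.

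Both adenosine receptors raise cAMP, and a list of 14 genes known to respond to or act in cAMP signalling was counted beside them. Many of them also respond to other stimuli. The list was chosen with earlier results of these data known, so its counts and medians are descriptions. All 14 were called in the F test (68% of all genes). Against lung, 1 was higher and 13 were lower in blood (26.4% and 17.3% of all genes), with a median of -1.46 beside 0.12 over all genes. Against liver 0 were higher and 10 lower (23.3% and 16.1%), with a median of -1.03 beside 0.07. Against the lymphoid organs the counts went both ways, with 8 higher and 3 lower against spleen (20.1% and 15.3%), 8 and 4 against lymph node (16.4% and 21%) and 5 and 5 against bone marrow (13% and 18.8%). Crem, a transcription factor gene induced by cAMP, was at 11.8 TPM in blood, 31.8 to 38.2 TPM in spleen, lymph node and bone marrow, 503 TPM in liver and 1340 TPM in lung (blood minus lung -6.78, SE 0.20, limma adjusted p 3.19e-13). Liver and lung were the 2 highest organs for Adora2a and for Crem, in the same order. Adora2b ran otherwise, at 4.97 TPM in blood, where Crem was lowest, and at 0 TPM in liver. A link between either receptor and the levels of these genes was not tested.

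Across the 18 libraries, the members were also compared with one another and with 9399 genes of at least 10 TPM in an organ, by Pearson r of log2(TPM + 1). These are descriptions, as libraries of an organ share their source. Among members, r was 0.81 for Entpd1 and Adora2b, 0.74 for Nt5e and Adora2a, 0.58 for Ada and P2rx7 and -0.60 for Adora2a and Ada. The genes most like Entpd1 were Pdlim7 (0.915), Marcks (0.907) and Oasl1 (0.906), and those most like Nt5e were Il2rb, the interleukin-2 receptor beta chain (0.975), Lrig1 (0.955) and Ldlrad4 (0.953). Adora2a was closest to Eea1 (0.972), Mif4gd (0.971) and Hif1a, the hypoxia-inducible transcription factor (0.962). Hif1a ran from 54.1 TPM in blood to 466.1 TPM in lung. Adora2b was closest to Zfyve9 (0.984), Cd300e (0.98) and Cd9 (0.979). Zfyve9 was at 12.5 TPM in blood and at most 1.1 TPM elsewhere, and Cd300e at 20.3 and at most 2.2 TPM. Cd9 was at 664.3 TPM in blood and 40.6 to 133.3 TPM elsewhere. For Ada the closest genes were Prkaca, a catalytic subunit of the cAMP-dependent kinase (0.928), Atxn10 (0.927) and Trim65 (0.918), and for P2rx7 they were Spint2 (0.953), Eva1b (0.946) and Ptprcap (0.913). By Spearman rho, or over the 6 organ means, at most 1 of the 3 closest genes stayed for each member.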

How the data were processed

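Per the labels' protocols, libraries were made from poly(A) RNA with a directional kit after RNAiso Plus extraction and column clean-up. The deposited tables, 1 for each of 18 libraries, give TPM to 2 decimals for 55487 Ensembl genes, and each table sums to between 999999.27 and 1000000.62. Per the submitters' processing notes, STAR, RSEM and mm10 were used, while versions and annotation are not given in the sources used here. Symbols and coordinates came from GENCODE M21, and promoter sequences from RefSeq (GRCm38.p6), which matched 5 of the 6 members with 7 start sites, 1 of whose windows lay wholly within exons.

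Groups follow the labels, with 3 libraries an organ. Genes that averaged 1 TPM or more in an organ were tested with limma 3.58.1 in R 4.3.3 on log2(TPM + 1), a pseudocount of 1, with all 18 libraries in 1 model (eBayes with trend and robust settings). An F test over 5 contrasts and 15 pairwise contrasts were adjusted by Benjamini-Hochberg over 16694 genes and called at an adjusted p under 0.05. The analysis was tested on simulated data. The alternatives were a pseudocount of 0.1, no filter, a filter of 5 TPM, 3 rescalings, library weights, 2-organ fits, plain variance moderation, a replicate block and leaving out each library.

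TPM keeps no depth, so what 1 read is worth was read from low values of 12062 single-transcript genes, where 85.2% to 91.9% of values of up to 8 reads fell within 0.1 of a whole read. The tests do not use it. Members and lists were chosen with earlier results of these data known, and the members' pathway, the cAMP list and the 3 most similar genes by Pearson r follow that choice; pathway genes of at least 10 TPM in an organ could be named with values, and Adora1 and Adora3 were named besides, as the other adenosine receptors, after their values had been seen. The summed level of the erythroid marker list is not reported here.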

Additional observations from a re-analysis of the deposited data

How the results depend on the processing

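All 6 members kept their F test call in each alternative that tested them; at a filter of 5 TPM Adora2b was not tested. Scaling to T cell genes reversed 2 of the members' 90 pairwise values: blood minus bone marrow in Nt5e, from -0.40 to 0.07, and blood minus liver in P2rx7, from -0.17 to 0.68. That scaling also raised the organ pairs called for Entpd1 from 6 to 10. In 2-organ fits 5 pairs were called for Adora2b, which did not pass the filter in the 10 pairs without blood. Leaving out 1 library gave 5 to 10 pairs for Entpd1, with the highest count without spleen replicate 2, and 7 to 13 for P2rx7, with the highest count without lung replicate 3. The other ranges were 14 to 14 (Nt5e), 11 to 12 (Adora2a), 9 to 10 (Adora2b) and 6 to 8 (Ada), and the genes called by F test over the whole table ranged from 10719 to 11846. Leaving out ribosomal protein, mitochondrial and haemoglobin genes moved the median of all genes from 0.14 to 0.00 between bone marrow and spleen. The cause of the other changes was not tested.

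With the replicate number as a block, 11192 genes were called by the F test against 11348, and no call of a member changed in the 90 pairwise values. Deviations of same-numbered libraries correlated at -0.034 to 0.03 over 45 pairs, and 9 of 18 libraries correlated best with their own number. Whether same-numbered libraries share animals cannot be told from these values. Depth limits Adora2b outside blood, where it had 0 to 27 reads an organ. Reads were not derived for the other members, so how many stand behind the low Ada values of liver and lung is not known.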
